A study of Mus musculus with 10 samples.

Results

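Mouse neural stem cells in which Atrx had been deleted were compared with control cells of the same kind after 8 days in differentiation medium, across every gene of the deposited expression table. The comparison used 5 of the 10 RNA sequencing libraries of the study: 2 from cells with Atrx (the lines Control NSC#1 and Control NSC#2) and 3 labelled as Atrx-deleted lines (mA16d#4, mA19d#4 and mA19d#7). All lines, controls included, were p53-null neural stem cells transduced with IDH1(R132H), a mutant form of isocitrate dehydrogenase found in gliomas. Differentiation medium was neural basal medium with B27 and no growth factor. The remaining 5 libraries held the same line labels in proliferation medium, where the growth factors EGF and bFGF were each given at 20 ng/ml, and served to estimate the spread of each gene and to compare the media. How Atrx was deleted, and whether the lines have a common source, is not given in the sources used here.

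Atrx encodes a remodeller of the SWI/SNF family that, together with its partner Daxx, places the histone variant H3.3 into heterochromatin, telomeres and other repeated DNA. It is often lost together with p53 in gliomas that carry mutant IDH1. Neural stem cells that lose growth factors normally leave the cell cycle and turn on genes of astrocytes, neurons and oligodendrocytes, so genes of cell division and of these cell types were examined as groups.

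The sequences around the start of 5 genes with large differences are given first. Many genes of mitosis carry near their start the sequence TTTGAA or TTCGAA, known as the cell cycle genes homology region, and CCAAT, which is bound by the factor NF-Y. Ube2c, Cenpf and Cenpa are shown because they were among the mitotic genes with the largest rise in the Atrx-deleted libraries. Each sequence runs from 250 bases before to 50 bases after the RefSeq start in build GRCm38.p6, 5′ to 3′ on the strand of the gene. Capitals mark these motifs on either strand, where CCAAT on the reverse strand reads ATTGG, the first motif reads TTCAAA there, and the second motif is its own reverse complement, and the capitals CCAATTGG in Ube2c hold CCAAT on both strands in overlap. The windows are chr2:164769679-164769978 on the plus strand for Ube2c, chr1:189688037-189688336 on the minus strand for Cenpf and chr5:30666636-30666935 on the plus strand for Cenpa.
Ube2c: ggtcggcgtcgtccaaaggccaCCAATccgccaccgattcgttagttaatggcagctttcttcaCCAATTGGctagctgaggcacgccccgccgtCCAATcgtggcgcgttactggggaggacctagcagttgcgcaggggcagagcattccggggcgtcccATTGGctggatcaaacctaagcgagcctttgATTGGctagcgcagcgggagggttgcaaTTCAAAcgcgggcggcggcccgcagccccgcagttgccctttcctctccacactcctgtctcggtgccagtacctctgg
Cenpf: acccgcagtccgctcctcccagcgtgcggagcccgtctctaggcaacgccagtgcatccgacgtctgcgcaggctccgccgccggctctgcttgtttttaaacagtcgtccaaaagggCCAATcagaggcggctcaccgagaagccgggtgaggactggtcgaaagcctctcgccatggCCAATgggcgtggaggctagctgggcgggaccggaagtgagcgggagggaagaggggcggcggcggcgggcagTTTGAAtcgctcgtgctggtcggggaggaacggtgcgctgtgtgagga
Cenpa: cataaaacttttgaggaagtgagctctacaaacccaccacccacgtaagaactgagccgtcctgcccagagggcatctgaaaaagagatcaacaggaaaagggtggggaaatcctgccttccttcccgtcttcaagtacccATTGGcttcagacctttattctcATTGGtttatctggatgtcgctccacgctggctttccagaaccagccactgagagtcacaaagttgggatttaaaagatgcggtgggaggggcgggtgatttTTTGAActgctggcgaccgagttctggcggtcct

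Among the 11602 tested genes with a window in the RefSeq table (74.1% of those tested), 13.5% held TTTGAA or TTCGAA on either strand and 38.5% held CCAAT. Of the mitotic genes that rose, 20 had a window, and 15 of these (75%) held TTTGAA or TTCGAA and 14 (70%) held CCAAT. The mitotic genes that did not pass the test gave shares of 84.6% for either motif, 11 of 13 windows in each case, so the motifs did not separate the members that passed from those that did not. All 7 genes of DNA replication that rose held CCAAT and none held TTTGAA or TTCGAA, while 3 of them (42.9%) held GCGGGAA, a motif of the type bound by E2F factors, against 8.16% of all tested genes. A match of letters is a description and shows no binding.

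Miat and Tmem132b are shown because they had the largest falls. Miat is a long non-coding RNA of the nervous system, and Tmem132b encodes a membrane protein of the TMEM132 family. Capitals mark CG dinucleotides, the sites of DNA methylation, which was not measured here. The windows are chr5:112228899-112229198 on the minus strand for Miat and chr5:125532168-125532467 on the plus strand for Tmem132b. The RefSeq starts used lie 447 and 644 bases downstream of the gene starts in GENCODE. Both windows therefore lie wholly within the genes as annotated there. The Miat window held 25 CG and the Tmem132b window 15, with an observed over expected ratio of CG of 0.807 and 0.573, against a median of 0.742 over all tested genes.
Miat: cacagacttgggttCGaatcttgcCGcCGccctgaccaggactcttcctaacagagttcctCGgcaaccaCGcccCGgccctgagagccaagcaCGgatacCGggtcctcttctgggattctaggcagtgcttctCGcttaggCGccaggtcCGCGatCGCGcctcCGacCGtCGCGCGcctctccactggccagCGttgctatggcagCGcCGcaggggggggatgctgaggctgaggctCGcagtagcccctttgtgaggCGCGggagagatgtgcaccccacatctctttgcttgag
Tmem132b: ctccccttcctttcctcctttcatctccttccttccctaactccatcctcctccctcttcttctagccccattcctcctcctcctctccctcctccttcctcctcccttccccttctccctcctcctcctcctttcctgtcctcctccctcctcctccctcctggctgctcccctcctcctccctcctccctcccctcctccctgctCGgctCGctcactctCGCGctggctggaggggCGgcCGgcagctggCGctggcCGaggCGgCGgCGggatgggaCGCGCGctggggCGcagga

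The values were deposited as log2 TPM, a measure of transcript abundance that is scaled by transcript length and by library total, and were the same set of sorted values in every library. A change in total RNA therefore cannot be seen, and sequencing depth is unknown. Each line was sequenced once per medium, so the spread between libraries is that between lines, and p-values measure that spread alone. The sample codes of all control libraries share 1 prefix and those of all Atrx-deleted libraries another, so any handling that followed the prefix cannot be told apart from the deletion.

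The library labelled mA19d#7 after 8 days stood apart, and its line label is doubtful. Across genes its level correlated with a Spearman rho of 0.957 with the proliferation library of mA16d#4 and 0.926 with that of its own label. Of the other differentiation libraries, it correlated at 0.938 with mA16d#4 and 0.915 with mA19d#4. Over 20 chromosomes, its median differences from control followed those of mA16d#4 in proliferation medium (Pearson's r = 0.918) more closely than those of its own label (r = 0.252). For comparison, mA16d#4 and mA19d#4 after 8 days gave 0.722 and 0.841 with their own labels. These values describe libraries that share a control mean. Of single markers, named after their values were seen, Gfap, the intermediate filament of astrocytes, was at 1412 TPM there, against 79.5 TPM in mA16d#4, 3.49 TPM in mA19d#4, and 4.65 and 1.57 TPM in the control libraries. The water channel Aqp4 was at 86.0 TPM there, against 19.2, 3.93, 7.21 and 2.75 TPM, and the neuronal tubulin Tubb3 was at 50.1 TPM, against 247 and 363 TPM in the other Atrx-deleted and 158 and 138 TPM in the control libraries. The astrocyte list as a whole did not follow Gfap and Aqp4: 14 of its 34 tested genes were above the control mean in this library, with a median difference of -0.211, and Slc4a4, Apoe and Ttyh1 had their lowest levels there. Counts of called genes are therefore given with and without this library.

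Markers of other cell types were present at different levels. Of the 14 microglia and macrophage markers in the table, 10 were under 1 TPM in all 5 libraries, among them Csf1r, Cx3cr1, Ptprc and Tmem119, and their summed level was 5.61 to 16 TPM in control and 8.56 to 18.3 TPM in Atrx-deleted libraries. Of 15 endothelial and mural markers 6 were under 1 TPM, Cdh5, Cldn5 and Pdgfrb among them, with sums of 28.5 to 30.4 and 13.6 to 28.9 TPM. Of 13 ependymal and choroid plexus markers 6 were under 1 TPM, Ttr and Kl among them, with sums of 68.6 to 74.9 and 36.8 to 177 TPM. Of 18 fibroblast and mesenchymal markers 3 were under 1 TPM, namely Col1a2, Dcn and Postn, with sums of 177 to 193 and 126 to 286 TPM. Of the 15 fibroblast and mesenchymal markers tested 1 rose, Tbx15, and 1 fell, Pdpn, with or without mA19d#7. Over all genes 1.55% rose and 1.33% fell, or 3.26% and 2.71% without mA19d#7. None of the tested members of the other lists named here was called in either fit. The part of such cells in the results was not tested. Of the genes that define the labelled cell type, Sox2 was at 422 and 437 TPM in control and at 364, 562 and 638 TPM in Atrx-deleted libraries. Nes, another of them, was at 245 and 284 against 319, 456 and 486 TPM. Olig2, which is on the oligodendrocyte lineage list, was at 949 and 1017 against 847, 1412 and 455 TPM, in overlap.

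Atrx itself (ENSMUSG00000031229, chrX:105797615-105929403, GRCm38) was at 128 and 127 TPM in the control libraries and at 54.4, 47.2 and 54.0 TPM in mA16d#4, mA19d#4 and the library labelled mA19d#7. The groups did not overlap, and the library of doubtful label lay between the others. The level fell to 40.8% of the control mean, a log2 difference of -1.28 (SE 0.22, limma adjusted p = 0.0204), or -1.31 without mA19d#7 (adjusted p = 0.0237). The exact two-sided permutation test over the 5 libraries gave p = 0.1, the smallest value that 10 arrangements allow. Without Control NSC#1 or Control NSC#2 the adjusted p was 0.192 or 0.127. The transcript was lowered and still present, and the table does not show which exons it held.

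Daxx, the partner of Atrx, was at 47.2 and 50.7 TPM in control and at 42.4, 68.3 and 32.9 TPM in Atrx-deleted libraries, in overlap. H3f3a, which encodes histone H3.3, was at 441 and 609 TPM against 1029, 1094 and 897 TPM (log2 difference 0.95, limma adjusted p = 0.0401), and an adjusted p of 0.0515 once the median of its chromosome had been subtracted in each library. The other H3.3 gene, H3f3b, did not pass (log2 difference 0.21, adjusted p = 0.768). Idh1, the mouse gene of the normal enzyme, was at 226 and 243 TPM against 151, 235 and 72.2 TPM (log2 difference -0.77, adjusted p = 0.359), and its lowest level was in mA19d#7. Trp53 transcript was present in these p53-null cells, and it rose from 55.9 and 54.5 TPM to 133, 121 and 87.5 TPM (log2 difference 1.01, adjusted p = 0.0232, and 0.00659 without mA19d#7). Its transcript does not tell whether functional protein was made. Cdkn1a, the p53 target that encodes the cell cycle inhibitor p21, was also higher in proliferation medium (log2 difference 2.55, limma adjusted p = 0.0222). Its levels there were 11.1 and 9.36 TPM in control and 68.1, 67.2 and 59.0 TPM in Atrx-deleted libraries. After 8 days they were 16.3 and 17.1 TPM against 99.6, 46.0 and 33.6 TPM (log2 difference 1.63, adjusted p = 0.043). Cdkn1a was the only one of 15 tested p53 targets that passed with all libraries after 8 days. Without mA19d#7, Bbc3, which encodes the pro-apoptotic protein PUMA, fell as well (log2 difference -1.10, adjusted p = 0.0487). Over all genes, 1.55% rose with all libraries and 2.71% fell without mA19d#7. The call of Cdkn1a was lost in 8 of the 10 fits that each lacked 1 library.

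Of 15660 genes tested, 452 passed an adjusted p of 0.05 after 8 days (2.89% of genes), 243 of them higher in Atrx-deleted libraries (1.55%) and 209 lower (1.33%). At least a 2-fold difference was seen in 364 of these, and 3165 genes passed at an unadjusted p below 0.05. Libraries of the groups did not overlap for 2846 tested genes on the higher side (18.2%) and 2840 on the lower side (18.1%). Without mA19d#7 the count rose to 935 (5.97%), 511 higher (3.26%) and 424 lower (2.71%). The same genes were called in the same direction in both fits in 416 cases, which is 92% of the 452 and 44.5% of the 935. Tested on the deposited log2 values directly, which give low levels more weight, 285 genes were higher and 151 lower.

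The control libraries of this medium carried the result. The count was 11 without Control NSC#1 and 30 without Control NSC#2, where the control that remained was assumed to vary like the other groups. It was 211 and 212 without the proliferation library of either control line, 261, 415 and 334 without that of mA19d#4, mA16d#4 or mA19d#7, and 412 and 346 without the differentiation library of mA16d#4 or mA19d#4. Fitted on the 5 differentiation libraries alone, only Miat (adjusted p = 0.00585) and Tmem132b (adjusted p = 0.00702) passed. The 10 genes called with every library left out in turn included Tbx15 and Neurl1b on the higher side, and Miat, Tmem132b, Csf2ra, Rimbp2, Gpx7, Slc6a9 and Irf5 on the lower side.

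The library labelled mA19d#7 lay on the same side of the control mean as the other 2 for the 416 genes called in both fits. These genes were chosen with this library in 1 of the fits, so the shared side follows from the choice. Genes called without it give a measure in which it had no part. For the 511 called higher, its median place was 0.645 of the way from the control mean to the mean of the other 2. For the 424 called lower it was 0.651. The plot shows the called genes by library.

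**Figure D1:**
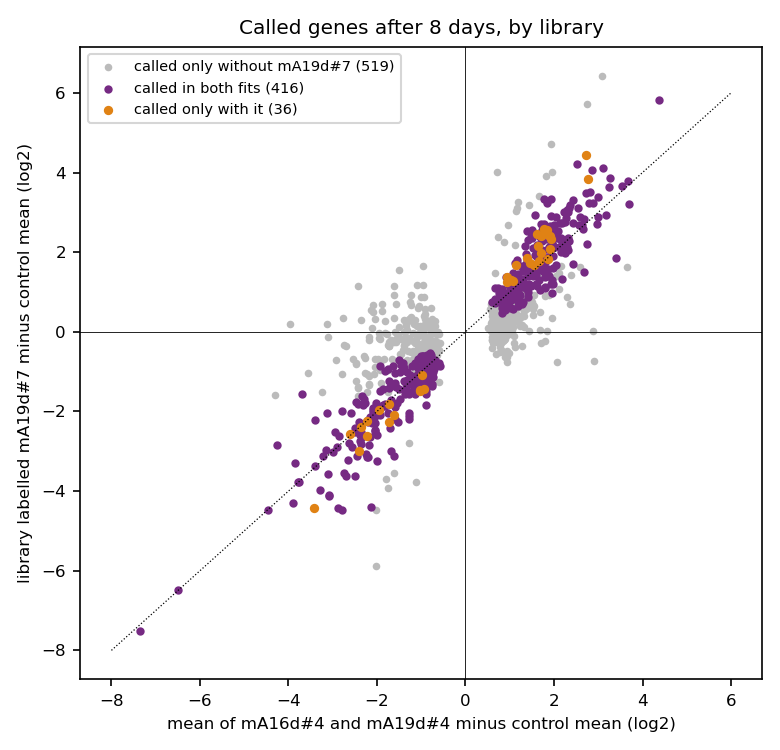
Each point is a gene called after 8 days. The horizontal axis gives the mean log2(TPM + 1) of mA16d#4 and mA19d#4 minus the control mean, the vertical axis the same for the library labelled mA19d#7, and the dotted line marks equal differences. The 416 genes called in both fits and the 36 called only with the library lie on the same side of 0 on both axes. Some of them lie well off the line, such as Tnc and Hoxa7. Many of the 519 called only without the library lie near 0 on the vertical axis.

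Of the 15 largest rises, 13 are described. Tbx15, a T-box factor of mesenchymal tissues (chr3:99240381-99354259), rose from 1.56 and 1.85 to 29.7, 31.6 and 33.2 TPM in mA16d#4, mA19d#4 and the library labelled mA19d#7. The log2 difference was 3.58 (SE 0.27, limma adjusted p = 0.000413), and 3.55 without mA19d#7 (adjusted p = 0.00246). All 3 Atrx-deleted libraries were at a similar level, and both controls far below. Tbx15 was equally high in the Atrx-deleted lines in proliferation medium (log2 difference 3.57, adjusted p = 0.00162).

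Tnc, the matrix glycoprotein tenascin-C of neural stem cell niches, rose from 6.31 and 9.45 to 42.9, 56.3 and 161 TPM (log2 difference 3.09, limma adjusted p = 0.0177, and 2.52 without mA19d#7). Its highest value belonged to the library of doubtful label. Hapln4, a link protein of the perineuronal matrix, rose from 1.14 and 1.38 to 30.5, 14 and 32.1 TPM. Ube2c, the ubiquitin-conjugating enzyme of the anaphase-promoting complex, rose from 7.24 and 13.7 to 64.4, 115 and 115 TPM (log2 difference 3.12, adjusted p = 0.00705). Psrc1, a spindle protein, rose from 1.90 and 1.77 to 11.0, 31.3 and 25.7 TPM. Capn6, a calpain without protease activity, rose from 0.432 and 0.353 to 15.8, 18.5 and 11.9 TPM. Further rises among the 15 were Mira (log2 difference 4.86), Shcbp1 (3.36), the transporter gene Slc16a13 (3.10), Vat1l (3.04), the red cell membrane protein gene Gypc (3.0), Tcte2 (2.97) and the Polycomb-related gene Sfmbt2 (2.88). For Mira and Shcbp1 the control libraries differed widely, with 0.00391 and 3.78 TPM, and 0.00548 and 3.77 TPM.

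The largest fall was that of Miat (chr5:112213228-112229395), from 178 and 200 TPM in the control libraries to 0.342, 0.0135 and 0.0357 TPM in the Atrx-deleted libraries. The log2 difference was -7.40 (SE 0.68, limma adjusted p = 0.00126), and -7.35 without mA19d#7 (adjusted p = 0.00466). Tmem132b (chr5:125531774-125792583) fell from 87.6 and 105 TPM to 0.131, 0.0117 and 0.0899 TPM (log2 difference -6.49, SE 0.41, adjusted p = 0.000261). Every Atrx-deleted library was near the floor of the table for both genes, and both controls were high. Csf2ra, the alpha chain of the GM-CSF receptor (chr19:61223957-61228429), fell from 26.6 and 16.9 to 0.0228, 0.00391 and 0.00697 TPM. Rimbp2, a protein of the presynaptic active zone (chr5:128757791-128953486), fell from 15.4 and 10.6 to 0.00548, 0.00697 and 0.00391 TPM. Both were equally low in the Atrx-deleted lines in proliferation medium, at log2 differences of -4.32 and -3.48.

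Camk2a, the kinase of postsynaptic densities, fell from 31.8 and 32.8 to 1.74, 4.39 and 1.79 TPM (log2 difference -3.27, limma adjusted p = 0.0104). Slitrk5, a synaptic adhesion protein, fell from 16.2 and 16.3 to 0.721, 1.43 and 0.0121 TPM. Bex1, a small adaptor of neurons, fell from 21.6 and 17.6 to 0.00697, 0.895 and 0.0349 TPM. Zfp488, a zinc finger factor of oligodendrocytes, fell from 17.5 and 13.2 to 0.143, 1.39 and 0.0223 TPM. Pdpn, podoplanin, which is on the fibroblast and mesenchymal list, fell from 63.0 and 44.1 to 4.85, 1.38 and 4.43 TPM. The remaining falls among the 15 were Cda (log2 difference -3.79), which encodes cytidine deaminase, Scarf2 (-3.77), Prss35 (-3.42), the flippase gene Atp9a (-3.39), the glutathione peroxidase gene Gpx7 (-3.38) and the lectin gene Cd302 (-3.36).

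Of the 15 rises, 2 stayed called without Control NSC#1 after 8 days and 6 without Control NSC#2, and of the 15 falls 5 did so in each case. With any other single library left out, at least 14 of the 15 stayed called on either side. Without mA19d#7 all 30 stayed called, which the rule for naming them had required.

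**Figure D2:**
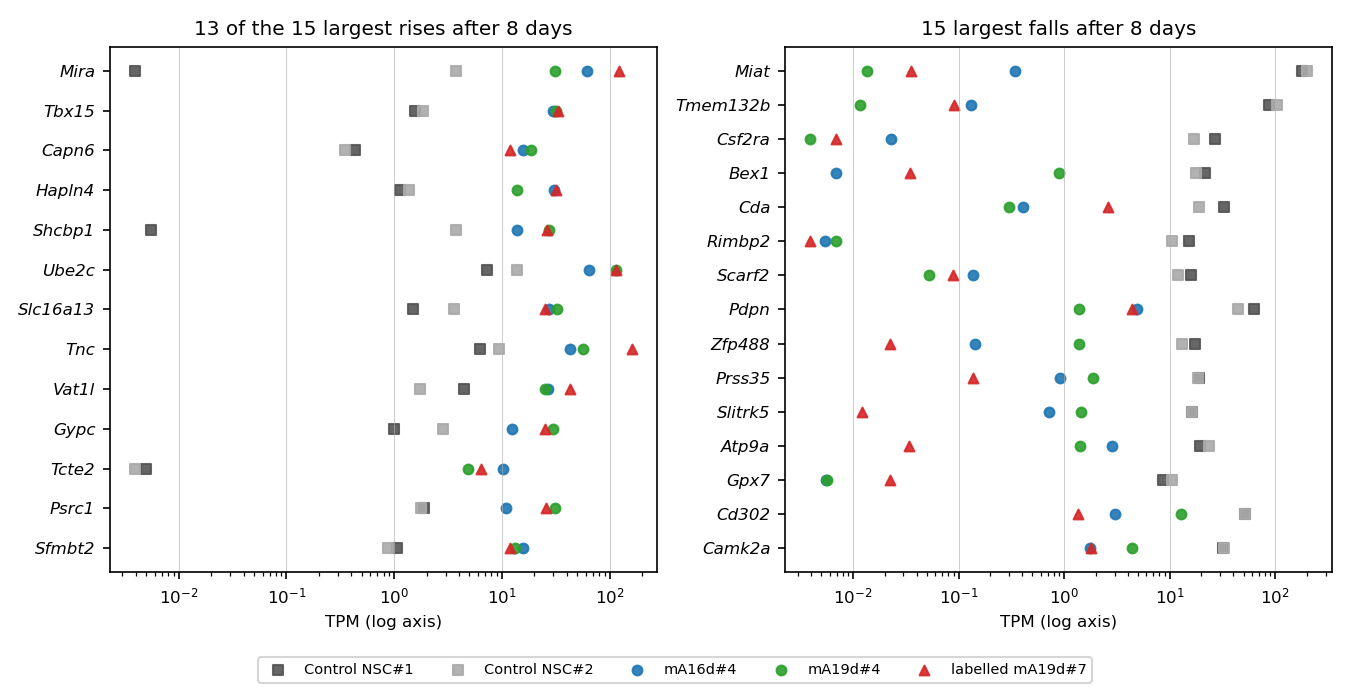
Level of 13 of the 15 genes with the largest rise and of the 15 with the largest fall, in TPM on a log axis, with 1 point for each of the 5 libraries after 8 days. Squares are control lines, circles mA16d#4 and mA19d#4, and triangles the library labelled mA19d#7. Squares and other symbols do not overlap for any of these genes, and Miat lies at 178 and 200 TPM in controls against at most 0.342 TPM in the Atrx-deleted libraries.

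Genes of mitosis and cytokinesis were higher in the Atrx-deleted libraries after 8 days. Of the 40 genes on the list, all tested, 25 rose and none fell, against a background of 1.55% of genes that rose, and 22 rose without mA19d#7, where the share of all genes was 3.26%. All 40 differences were positive, and their median log2 difference was 1.81, or 1.71 without mA19d#7, against 0.0158 over all tested genes. Atrx-deleted libraries were all above both controls for 37 of the 40, against 18.2% of all tested genes, the others being Ccnb2, Kif20a and Pttg1, which were not called. The genes that rose lie on 13 chromosomes, with at most 6 on one of them. In a bulk sample, more dividing cells and more RNA in each dividing cell cannot be told apart.

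Ccnb1, the mitotic cyclin, rose from 12 and 16.5 TPM to 35.8, 97.9 and 95.9 TPM, and its kinase Cdk1 from 4.56 and 9.97 to 18, 43.9 and 48.6 TPM (log2 difference 2.16, limma adjusted p = 0.0288). Top2a, the topoisomerase that untangles chromosomes, rose from 23.6 and 21.8 to 74.4, 150 and 111 TPM (log2 difference 2.20, adjusted p = 0.0104). Cenpf and Cenpa, proteins of the kinetochore and centromere, rose from 7.65 and 7.88 to 24.9, 75.0 and 74.3 TPM, and from 14.6 and 5.09 to 27, 69.2 and 63.7 TPM. In each of these genes mA16d#4 was the lowest Atrx-deleted library, and it was still above both controls.

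Kif2c, a kinesin that takes microtubules apart, rose from 2.54 and 3.65 to 14.8, 23.8 and 32.7 TPM, and the phosphatase gene Cdc25c, which activates Cdk1, from 2.80 and 0.00391 to 9.06, 14.5 and 13 TPM. Cdc20, the activator of the anaphase-promoting complex, rose from 12.4 and 8.88 to 34.2, 63.6 and 84.2 TPM, and Mki67, the proliferation marker Ki-67, from 23.1 and 23.5 to 55.6, 163 and 90.5 TPM (log2 difference 1.96, limma adjusted p = 0.0271). Among those that did not pass were the kinase gene Plk1 (log2 difference 1.62, adjusted p = 0.0629) and the spindle motor gene Kif11 (1.65, adjusted p = 0.0674). The summed level of the list was 494 and 495 TPM in the control libraries and 1072, 2391 and 2129 TPM in mA16d#4, mA19d#4 and the library labelled mA19d#7. By line, 38, 40 and 40 of the 40 members were above the control mean.

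In proliferation medium none of the 40 passed, and the median log2 difference was 0.0969. From proliferation to differentiation medium the list fell in the control lines, with a median log2 change of -2.28 and 33 of 40 genes lower, and had a median change of -0.633 with no gene called in the Atrx-deleted lines. Ube2c, for example, went from 176 and 90.4 TPM to 7.24 and 13.7 TPM in the controls, while in the Atrx-deleted lines it was at 223, 165 and 115 TPM in proliferation medium and at 64.4, 115 and 115 TPM after 8 days. These comparisons share the control libraries after 8 days. The difference between the media was tested per gene, and no mitotic gene passed it (for Ube2c 2.76 on the log2 scale, limma adjusted p = 0.288). The number of mitotic genes called was 1 without either control library after 8 days, 9 without mA19d#4 and 31 without mA16d#4. It was 14 without the proliferation library of either control line, 12 without that of mA19d#4, 5 with no filter on low values and 14 with no mean-variance trend. None passed with the differentiation libraries alone.

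**Figure D3:**
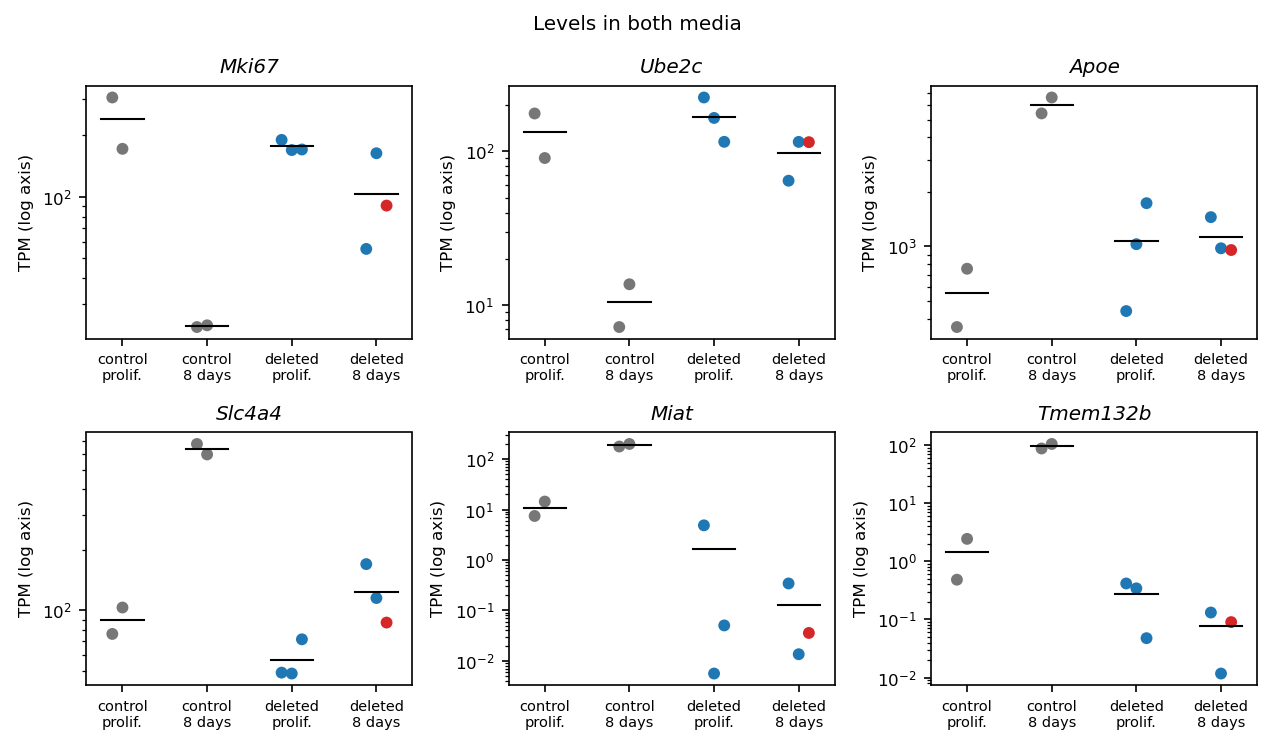
Level of 6 genes in TPM on a log axis, in control and Atrx-deleted libraries in proliferation medium and after 8 days, with 1 point per library and a bar at the group mean. The red point is the library labelled mA19d#7 after 8 days. The mitotic genes Mki67 and Ube2c are low in the controls after 8 days alone, and Apoe, Slc4a4, Miat and Tmem132b are high in the controls after 8 days alone.

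Genes of S phase and DNA replication were higher to a lesser extent. Of 34 tested members 7 rose and none fell, against 1.55% of all genes that rose. Without mA19d#7 10 rose, against 3.26%. The median log2 difference was 0.82, or 0.91 without mA19d#7. The E2F family members E2f2 and E2f7 led the list, with 1.54 and 1.54 TPM against 14.8, 10.8 and 7.23 TPM for E2f2 (log2 difference 2.18, limma adjusted p = 0.0234), and 1.72 and 1.86 TPM against 8.10, 10.8 and 6.42 TPM for E2f7. Subunits of the MCM helicase complex rose in part. Mcm5 was at 15.1 and 11.5 TPM in control and at 32.9, 65.8 and 39.9 TPM in Atrx-deleted libraries. Mcm3, Mcm6 and the replication factor gene Mcm10 also rose, with log2 differences of 1.45, 1.26 and 1.54. Mcm2 and Mcm7 passed only without mA19d#7 (adjusted p = 0.0285 and 0.026), and Pcna did not pass in either fit (log2 difference 0.69). The cyclin genes Ccnd1 and Ccne1 had differences of 0.14 and -0.16, within the spread between libraries.

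Of 29 tested genes of DNA repair and checkpoints 6 rose and 1 fell, against 1.55% and 1.33% of all genes. Without mA19d#7 8 rose and 1 fell, against 3.26% and 2.71%. Chek1, the replication checkpoint kinase, rose from 2.12 and 2.75 TPM to 9.27, 13.9 and 8.20 TPM (log2 difference 1.71, limma adjusted p = 0.0337). Brca1, a protein of homologous recombination, rose from 5.13 and 7.11 to 15, 21.5 and 20.9 TPM. The exonuclease gene Exo1 and Rad51ap1 rose by 1.73 and 1.55 on the log2 scale, close to the threshold (limma adjusted p = 0.043 and 0.046). The gene that fell was Fanci of the Fanconi anaemia complex, from 67.4 and 81.2 to 21.7, 28.7 and 14.6 TPM (log2 difference -1.78, adjusted p = 0.0108). Fanci lies on chromosome 7, where tested genes had lower medians in all 3 Atrx-deleted libraries. Among 28 genes of H3.3 deposition and heterochromatin, Asf1b, a histone chaperone of dividing cells, and Uhrf1, which maintains DNA methylation at replication, rose together with H3f3a. Their log2 differences were 1.84 and 1.69 (limma adjusted p = 0.0179 and 0.0471). Without mA19d#7 the methyltransferase gene Dnmt1 rose too (log2 difference 0.77, adjusted p = 0.0474). Of 13 genes of cell cycle exit, Cdkn1a was called in both fits and no other in either.

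Several genes of astrocytes were lower in the Atrx-deleted libraries, while Gfap was not. Of 34 tested astrocyte genes 3 fell and none rose, against 1.33% of all genes that fell, and 7 fell without mA19d#7, against 2.71%. The median log2 difference was -0.81, and -0.88 without mA19d#7. Slc4a4, the bicarbonate cotransporter of astrocytes (chr5:88886818-89239653), fell from 674 and 598 TPM to 170, 115 and 86.9 TPM (log2 difference -2.40, SE 0.28, limma adjusted p = 0.00496). Apoe, the main lipoprotein of the brain (chr7:19696109-19699188), fell from 5424 and 6640 to 1451, 977 and 955 TPM (log2 difference -2.44, SE 0.52, adjusted p = 0.0372). Ttyh1, a membrane protein of glia, fell from 1139 and 1077 to 654, 521 and 412 TPM (log2 difference -1.09, adjusted p = 0.0337). Apoe and Ttyh1 lie on chromosome 7, and after the chromosome medians were subtracted their adjusted p was 0.0511 and 0.0844.

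The genes added without mA19d#7 were Ntsr2, Clu, Mt2 and Id3. Clu, the secreted chaperone clusterin, was at 228 and 160 TPM in control, at 46.8 and 39.3 TPM in mA16d#4 and mA19d#4, and at 280 TPM in the library labelled mA19d#7, above every other library of this medium. The metallothionein gene Mt2 was at 2742 and 1851 TPM in control, at 900 and 458 TPM in mA16d#4 and mA19d#4, and at 2742 TPM in the library labelled mA19d#7. Gja1, the gap junction protein connexin 43, was at 561 and 386 TPM in control and at 88.5, 9.58 and 312 TPM in Atrx-deleted libraries, and did not pass in either fit (adjusted p = 0.227, and 0.0609 without mA19d#7). Ednrb, the endothelin receptor of astrocytes, was at 424 and 310 TPM against 22.8, 198 and 6.0 TPM, and did not pass either. By line the median difference of the list was -0.336, -1.09 and -0.211 in mA16d#4, mA19d#4 and the library labelled mA19d#7.

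In the control lines the astrocyte list rose from proliferation medium to day 8, with a median log2 change of 0.883 and 7 genes higher, and in the Atrx-deleted lines the median change was 0.401 with none called. Apoe went from 359 and 753 TPM to 5424 and 6640 TPM in the controls, and from 440, 1029 and 1733 TPM to 1451, 977 and 955 TPM in the Atrx-deleted lines. Its difference between the media was -3.26 on the log2 scale and did not pass (limma adjusted p = 0.331). The number of astrocyte genes that fell was 0 without either control library after 8 days, 1 without the proliferation library of either control line or of mA19d#4, 2 without the differentiation library of mA19d#4, and 8 without that of mA16d#4.

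Genes of the oligodendrocyte lineage were lower in part. Of 26 tested members 4 fell and none rose with or without mA19d#7, against 1.33% of all genes that fell with all libraries and 2.71% without it. The median log2 difference was -0.94, or -0.31 without mA19d#7. The summed level overlapped, at 6280 and 6549 TPM in control and at 4380, 8144 and 2652 TPM in mA16d#4, mA19d#4 and the library labelled mA19d#7. Pdgfra, the growth factor receptor of oligodendrocyte precursors, fell from 88.6 and 85.3 TPM to 36.7, 19.1 and 10 TPM (log2 difference -2.11, limma adjusted p = 0.0271). Bcas1, a marker of early myelinating cells, fell from 81.9 and 86.5 to 31.6, 11.3 and 21.6 TPM, and was already lower in proliferation medium (log2 difference -2.52, adjusted p = 0.0471). Zfp488 fell too, as given among the largest falls. In each of these genes all Atrx-deleted libraries were below both controls.

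Other members of this list depended on the line. Gpr17, a receptor of committed precursors, was at 495 and 447 TPM in control and at 411, 636 and 15.6 TPM in mA16d#4, mA19d#4 and the library labelled mA19d#7, and Tnr, tenascin-R, at 139 and 126 TPM against 57.3, 197 and 6.0 TPM. Sox10, a factor that defines the lineage, was low in all libraries, at 1.03 and 0.0136 TPM in control and at 3.06, 2.05 and 0.440 TPM in Atrx-deleted libraries. Mbp, a major myelin protein, was under 2 TPM in each of the 5 libraries. The number of oligodendrocyte genes that fell was 0 without either control library after 8 days and 2 without the proliferation library of either control line.

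Of 28 tested pan-neuronal genes 1 rose and 2 fell, against 1.55% and 1.33% of all genes, with a median log2 difference of -0.0014. Without mA19d#7 the same 2 fell and none rose, against 2.71% and 3.26% of all genes. Rbfox3, which encodes the mature neuron antigen NeuN, fell from 9.88 and 12.7 TPM to 0.138, 1.95 and 0.0488 TPM (log2 difference -3.01, limma adjusted p = 0.0303), beside Bex1. Nefl, the light neurofilament, was at 0.00631 and 0.00559 TPM in control and at 2.91, 2.60 and 3.28 TPM in Atrx-deleted libraries (adjusted p = 0.046, and 0.059 without mA19d#7). Early neuronal genes overlapped between the groups through the library labelled mA19d#7. Dcx was at 6.86 and 17.7 TPM against 53, 19.5 and 16.7 TPM, and Map2 at 620 and 646 TPM against 903, 760 and 358 TPM. Without that library Dcx, Map2 and Tubb3 were higher in both Atrx-deleted libraries than in both controls, and none passed (log2 differences 1.46, 0.39 and 1.01, limma adjusted p = 0.253, 0.221 and 0.0961). Stmn3, a regulator of neuronal microtubules, was at 162 TPM in mA19d#4, 0.992 TPM in mA16d#4 and 1.34 TPM in the library labelled mA19d#7, against 15.9 and 45.1 TPM in control.

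In either fit, of 32 tested genes of synapses 1 fell, Rimbp2, and of 32 channels and receptors 1 rose, Chrna4, a subunit of the nicotinic acetylcholine receptor, from 15.4 and 17.2 to 44.0, 89.9 and 61.9 TPM. Over all genes 1.55% rose and 1.33% fell, or 3.26% and 2.71% without mA19d#7. Single calls on lists of this size are not read as results about the list. None of 16 GABAergic interneuron genes and none of 13 glutamatergic genes was called in either fit. Gad1, the enzyme that makes GABA, was at 25.2 and 31.8 TPM in control and at 7.11, 11.4 and 3.71 TPM in Atrx-deleted libraries, without overlap, and did not pass (log2 difference -1.91, limma adjusted p = 0.103). Gad2, Slc32a1 and Lhx6 were under 1 TPM in all 5 libraries. Of 24 genes of neural stem cells and progenitors Tnc alone was called in either fit. Egfr, the receptor of the growth factor left out of this medium, was at 262 and 291 TPM in control and at 189, 208 and 235 TPM in Atrx-deleted libraries (log2 difference -0.40, adjusted p = 0.199).

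Of 19 tested Hox genes, which encode factors of body axis patterning, 5 rose, all in the Hoxa cluster on chromosome 6, against 1.55% of all genes. Without mA19d#7 3 rose, against 3.26%. Of the 19, 11 would not have passed the filter on low values with the control libraries of both media alone. That favours upward differences, so no sign count or median over the list is given as a result. Hoxa2 was at 2.86 and 2.63 TPM in control and at 12.2, 13.4 and 12.6 TPM in Atrx-deleted libraries (log2 difference 1.87, limma adjusted p = 0.0116). Hoxa3 was at 1.08 and 7.53 TPM against 19.7, 32.5 and 24.1 TPM. Hoxa7, at 1.08 and 0.908 TPM against 17.9, 8.23 and 42.0 TPM, and Hoxa10, at 3.65 and 0.436 TPM against 23.7, 11.6 and 36.0 TPM, lost their calls without mA19d#7 (adjusted p = 0.0568 and 0.0571). Hoxa5 rose from 25 and 33.2 to 54.4, 69.6 and 52.8 TPM.

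The Hoxd genes split the lines: Hoxd8 was at 24.2 TPM in mA16d#4 and 41.8 TPM in the library labelled mA19d#7, against 0.00391 TPM in mA19d#4 and 0.442 and 0.0534 TPM in control. Hoxb3 and Hoxb8 were above 1 TPM in mA19d#4 alone, at 3.99 and 2.90 TPM. After the chromosome medians were subtracted, Hoxa7 and Hoxa10 did not pass (adjusted p = 0.0618 and 0.0559), and Hoxa2 and Hoxa3 did (adjusted p = 0.0162 and 0.0359).

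Of 29 matrix genes of the neural lineage 3 rose, namely Hapln4, Tnc and the laminin gene Lama4 (log2 difference 1.62), and none fell, against 1.55% and 1.33% of all genes. Without mA19d#7 4 rose and 2 fell, against 3.26% and 2.71%, with Lama5 (log2 difference 1.16) added on the higher side and Reln (-2.23) and Itgb8 (-0.95) on the lower. Of 33 genes of the Wnt pathway, Notum, a secreted inhibitor of Wnt ligands, rose by 2.33 on the log2 scale, and the ligand gene Wnt4 fell from 10.8 and 13.8 to 0.325, 1.23 and 1.30 TPM (log2 difference -2.80, limma adjusted p = 0.00705). Without mA19d#7 Wnt5a and the receptor gene Fzd3 fell too (log2 differences -1.19 and -0.60). Of 33 genes of the BMP and TGF-beta pathways Ctgf, a secreted matrix regulator, fell from 28.4 and 29.0 to 2.07, 2.76 and 6.27 TPM, and Id3 fell too without mA19d#7. Of 35 genes of EGF and FGF signalling 1 fell, Pdgfra, and without mA19d#7 the pathway inhibitors Spry4 and Spred2 also rose (log2 differences 0.93 and 0.70). Of 28 genes of cholesterol and lipids 1 fell, Apoe. Without mA19d#7 the cholesterol exporters Abca1 and Abcg1 fell too (log2 differences -1.76 and -2.04), and Fdps, of sterol synthesis, and Elovl6, of fatty acid elongation, rose (1.04 and 0.98). In either fit, of 16 genes of hypoxia and glycolysis the glucose transporter gene Slc2a1 fell from 105 and 104 to 48.5, 27.7 and 51.2 TPM. The shares of all genes given for the matrix list apply to each of these lists. Their few calls describe single genes and are not read as results about the pathways.

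Among 26 imprinted genes Igf2r, the receptor that clears IGF2, rose from 13.3 and 11.7 to 38.0, 32.0 and 29.4 TPM (log2 difference 1.33, limma adjusted p = 0.016), and Nap1l5 was added without mA19d#7 (log2 difference 3.66, adjusted p = 0.0469). Among 19 genes of MHC class I and antigen processing, the immunoproteasome subunit gene Psmb8 was at 0.00541 and 0.00391 TPM in control and at 2.47, 2.45 and 9.18 TPM in Atrx-deleted libraries (adjusted p = 0.0368). Without mA19d#7, 3 genes of that list rose and 1 fell, against 3.26% and 2.71% of all genes. With all libraries Igf2r and Psmb8 were the only calls on their lists, where 1.55% of all genes rose. No gene was called on the lists of the Notch (21 tested) and Hedgehog (13) pathways, Polycomb complexes (23), interferon response (27) and the unfolded protein response (17). Without mA19d#7, 2 Polycomb genes rose and 1 interferon response gene fell, against the same 3.26% and 2.71% of all genes.

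**Figure D4:**
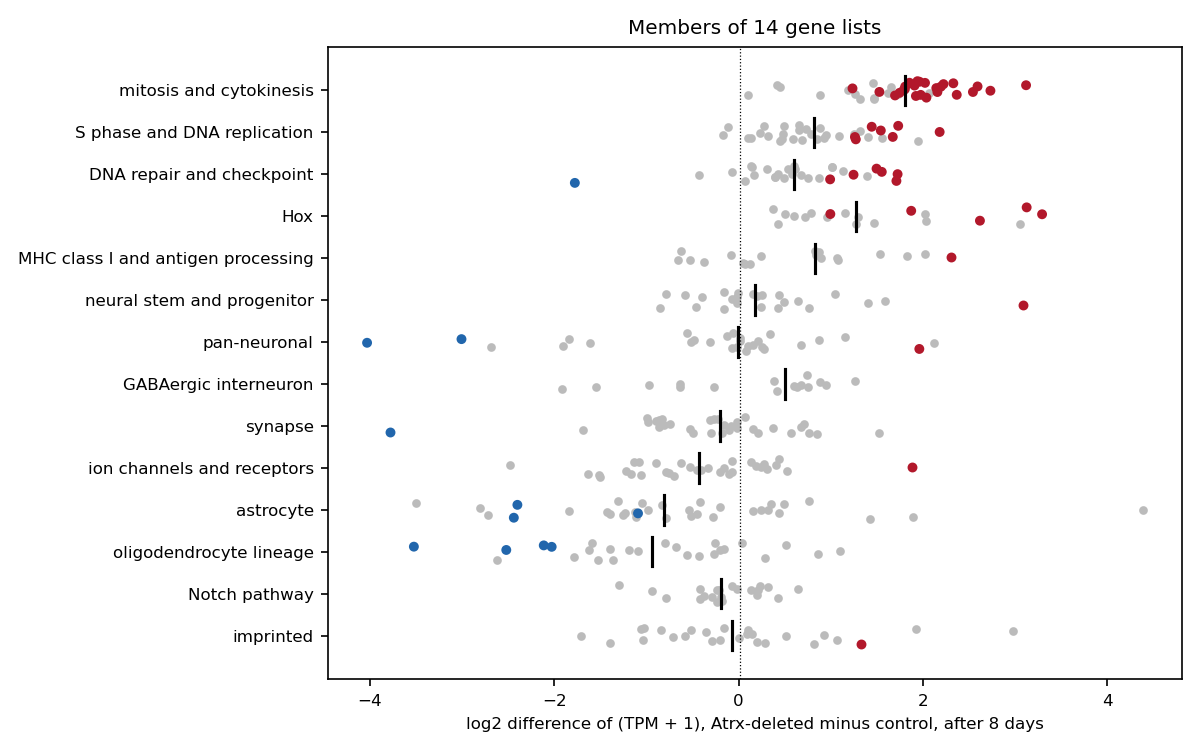
Log2 difference of (TPM + 1) between Atrx-deleted and control libraries after 8 days, with 1 point per tested gene for 14 lists. Red and blue points are genes called higher and lower, grey points were not called, and the black bar is the median of the list. The medians are 1.81 for mitosis, 0.82 for S phase, -0.81 for astrocyte and -0.94 for oligodendrocyte lineage genes, against 0.0158 over all tested genes. The bar for Hox rests on members of which 11 of 19 would not have passed the filter with the control libraries alone.

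Some genes were present in both controls and nearly absent from every Atrx-deleted library. With at least 5 TPM in both control libraries and under 0.5 TPM in all 3 others, 9 genes were off: Miat, Tmem132b, Csf2ra, Scarf2, Rimbp2, Cldn34c1, Gpx7, A330048O09Rik and the ceramide synthase gene Cers4. These genes lie on 7 chromosomes, and Miat, Tmem132b and Rimbp2 all lie on chromosome 5. In proliferation medium Csf2ra, Rimbp2, Scarf2, Cldn34c1 and Gpx7 were above 5 TPM in both controls. Their highest Atrx-deleted level in that medium was 0.0913 TPM for Csf2ra, 0.0129 for Rimbp2, 2.27 for Scarf2, 0.0209 for Cldn34c1 and 0.00391 for Gpx7. Tmem132b was at 0.483 and 2.44 TPM in the controls in proliferation medium, and the non-coding A330048O09Rik at 0.00391 and 0.0352 TPM, so their high level was seen in the controls after 8 days alone. Miat was at 7.47 and 14.4 TPM in proliferating controls and at 4.87, 0.00559 and 0.0503 TPM in the Atrx-deleted lines. Cldn34c1 has close copies on chromosome X between which reads can be divided, so its level is uncertain.

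By the opposite rule 3 genes were on. Capn6 and the antisense transcript 6430503K07Rik were called, the latter at 0.0231 and 0.0116 TPM in control and at 7.33, 8.28 and 16.5 TPM in Atrx-deleted libraries. Whether the counting used strand is not given in the sources used here, so its reads cannot be told apart from those of an overlapping gene. Slc6a15, a transporter of neutral amino acids, was at 0.00391 and 0.416 TPM against 7.38, 6.14 and 59.4 TPM and was not called (limma adjusted p = 0.0913). With levels of 2 and 0.2 TPM in place of 5 and 0.5, 23 genes were off and 21 on. Without mA19d#7, 12 were off and 3 on.

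Differences between the groups followed chromosomes in part. The median log2 difference of all tested genes of a chromosome was below -0.1 in all 3 Atrx-deleted libraries on chromosomes 7, 16 and X, a limit set after the values were seen. It was -0.366, -0.189 and -0.391 on chromosome 7 in mA16d#4, mA19d#4 and the library labelled mA19d#7, -0.316, -0.247 and -0.394 on chromosome 16, and -0.231, -0.118 and -0.361 on chromosome X, which holds Atrx. Chromosome 8 was above 0.1 in all 3, at 0.225, 0.231 and 0.264. All 3 were also on the same side, with at least 1 library within 0.1 of 0, for chromosomes 1, 5 and 6, which were higher, and 10, 12 and 18, which were lower. Chromosome 1 was at 0.197, 0.158 and 0.073. The control lines differed by at most 0.036 on any of the 20 chromosomes. On chromosome 4 the lines went apart, with 0.175, -0.264 and 0.276, and on chromosome 11 the medians were 0.290, 0.145 and -0.023.

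Calls followed these medians. Chromosome 7 held 2 genes called higher and 33 called lower of 1117 tested, chromosome 16 held 2 and 14 of 465, chromosome X 2 and 17 of 517, and chromosome 8 held 25 and 5 of 803. After the median of its chromosome had been subtracted from each value in each library, a step added after seeing the data, 443 genes were called in all, 331 of them among the 452. The counts then were 8 higher and 9 lower on chromosome 7, 3 and 6 on chromosome 16, 10 and 13 on chromosome X and 12 and 12 on chromosome 8. The mitotic genes called numbered 26 after this step, and 20 without mA19d#7. No called mitotic gene lies on chromosome 8. The part of whole chromosomes in the other results was not tested.

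**Figure D5:**
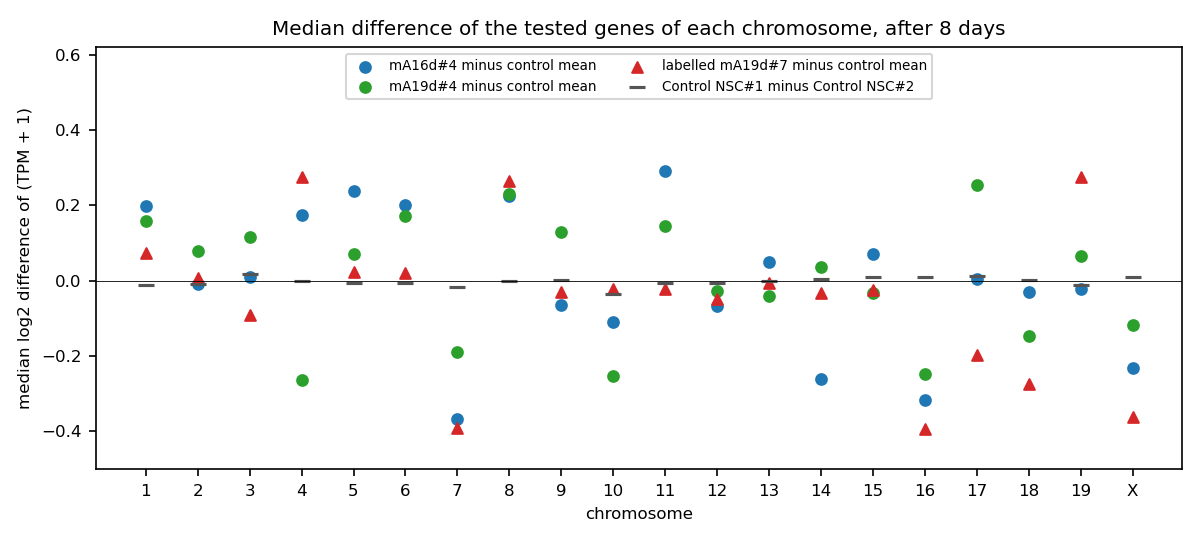
Median log2 difference of (TPM + 1) over the tested genes of each chromosome after 8 days, for each Atrx-deleted library minus the control mean, and for the control lines against each other (bars). The bars stay within 0.036 of 0, while the Atrx-deleted libraries reach -0.394 on chromosome 16, and all 3 lie more than 0.1 from 0 on the same side for chromosomes 7, 8, 16 and X.

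Most of the genes called after 8 days had a difference of the same sign and smaller size in proliferation medium. Of the 243 called higher 208 were also higher there, with a median log2 difference of 0.44 against 1.71 after 8 days, and of the 209 called lower 183 were lower, with -0.60 against -1.53. The larger size after 8 days is that of genes chosen in that medium. How many of all tested genes had the same sign in both media was not counted. The counts of shared sign are therefore not read as particular to the called genes. In proliferation medium 72 genes were called (0.46% of those tested), and 36 genes were called in both media in the same direction, 18 higher and 18 lower. The 36 are 8% of the 452 and 50% of the 72.

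The difference of the Atrx effect between the media was tested for each gene. It passed for 1 gene, Tmem132b (0.00639% of those tested), with -5.65 on the log2 scale (SE 0.58, limma adjusted p = 0.0282). At an unadjusted p below 0.05, 1099 genes passed. Tmem132b rose in the control lines from proliferation medium to day 8 by 5.42 on the log2 scale (adjusted p = 0.000807) and changed by -0.22 in the Atrx-deleted lines. Without mA19d#7 the difference passed for 3 genes (0.0192%), Tmem132b, Fam212b and Tle6.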

How the data were processed

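RNA was extracted with an RNeasy kit and sequenced from TruSeq libraries, per the labels' protocols, in 10 libraries with 5 line labels. Reads were aligned with STAR to mm10, per the submitters' processing notes. Software versions, the annotation used and how TPM was computed are not given in the sources used. The authors deposited log2 values for 21101 genes. All libraries held the same sorted values, with 1213 genes at the lowest value of -8 in each, and after the log was undone each library summed to 997524. The unit was therefore taken as log2 TPM after quantile normalisation.

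For each gene, log2(TPM + 1) entered a limma 3.58.1 model (R 4.3.3) of 4 group means over 10 libraries, with 6 residual degrees of freedom and a trend of the variance on the mean. The 15660 genes that reached 1 TPM in 2 or more libraries were tested. P-values were adjusted by Benjamini-Hochberg over all of them, and a gene is called below 0.05. Log2 differences are Atrx-deleted minus control on the log2(TPM + 1) scale and understate changes of low genes. The same fit was run without the library labelled mA19d#7. The fit was tested on simulated data.

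Named genes were the 15 largest rises and falls among genes called in both fits, with a log2 difference of at least 1, at least 5 TPM in the higher group mean and no overlap. This left 175 rises and 135 falls, and 20 symbols of clone type were passed over. Up to 4 called members per direction of each of 32 gene lists, the off and on genes and a set of markers were added. Other genes named were chosen after their values were seen. Some genes that the rule selects are not reported here. The members, rules and lists were chosen with earlier results of these data known.

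Positions are from GENCODE M21 (GRCm38, the same build as mm10), and sequences from the RefSeq table of GRCm38.p6. Printed windows had to start within 1000 bases of the annotated start and lie outside chromosome 18. No comparison of GC content between called genes is given. A window was found for 72.8% of the genes called higher and 79.9% of those called lower, against 74.1% of all tested genes. Line labels are shared between media. Libraries with the same line label were compared by how their deviations from group means correlated. The correlation was 0.062 for the controls, 0.159 for mA16d#4, 0.404 for mA19d#4 and -0.194 for the label mA19d#7. Alternatives were other pseudocounts, filters, variance models, scaling, the line as a block, each library left out, and values centred within chromosomes.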

Additional observations from a re-analysis of the deposited data

Results flagged for a closer look

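The effect of Atrx deletion on Tmem132b differed between the media by -5.647 on the log2 scale (limma adjusted p = 0.0282, and 0.0371 without mA19d#7). The difference of effects between media was tested for every gene, and with all libraries it passed for no other. Tmem132b was at 87.6 and 105 TPM in the control libraries after 8 days and at 0.131, 0.0117 and 0.0899 TPM in the Atrx-deleted ones. In proliferation medium it was at 0.483 and 2.44 TPM against 0.416, 0.343 and 0.0476 TPM. With 1 library left out in turn, 0 to 3 genes passed this test, and none passed in 8 of the 10 fits. Groups of 2 and 3 libraries were too small for a test of single outlying libraries.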

How the results depend on the processing

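No named gene that was called with all libraries changed direction under any alternative. Genes not called there could change sign, as Daxx did (log2 difference -0.096, and 0.136 without mA19d#7). Leaving out each of the 10 libraries in turn gave 11 to 935 genes called (4 to 511 higher, 7 to 424 lower), 0 to 3 with a difference between media, 1 to 31 mitotic genes higher, 0 to 8 astrocyte genes lower and 0 to 4 oligodendrocyte genes lower. The log2 difference of Atrx lay between -1.31 and -1.21. With the differentiation libraries alone 2 genes were called, 0 higher and 2 lower, with 0 mitotic, 0 astrocyte and 0 oligodendrocyte genes, at 2357 genes with an unadjusted p below 0.05. That fit has fewer samples to estimate the spread. With no filter on low values 133 genes were higher and 178 lower, 30 differed between media, and 5 mitotic, 1 astrocyte and 1 oligodendrocyte genes were called, with more genes tested. With no trend these counts were 2 between media, 14 mitotic and 1 astrocyte. The deposited log2 values tested directly gave 2 oligodendrocyte genes, and a pseudocount of 0.1 gave 0 between media. With values centred within each chromosome 1 astrocyte gene was called, and without mA19d#7 as well 899 genes (432 higher, 467 lower) and 6 astrocyte genes. Levels of 2 and 0.2 TPM gave 23 genes off and 21 on. Except where stated, the cause was not tested.

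With the replicate block (line as a random block) 458 genes were called, 246 higher and 212 lower, 451 of them among the 452, and no named gene changed its call. With the line as a fixed block 0 genes differed between media. Pairing by line label was weak in the check of deviations, and a line cannot be a fixed block between lines. The check and both blocks rest on the doubtful label. The library labelled mA19d#7 after 8 days gave 0.378 with mA16d#4 in proliferation medium, and -0.194 with its own label. These fits therefore cannot decide whether libraries of the same line are alike. Of the 85 named genes, 16 were on the same side of the threshold with the differentiation libraries alone, 49 with no filter and 67 on the deposited log2 values. Depth is unknown, so no counting error can be given.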

Other observations

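Neurl1b, Slc6a9 and Irf5 were called with every library left out in turn and were outside the rule for named genes, so they were chosen after their values were seen. Slc6a9, the glycine transporter of glia, fell from 237 and 188 TPM in control to 34.6, 45.9 and 34.0 TPM in Atrx-deleted libraries after 8 days (log2 difference -2.45, limma adjusted p = 0.000413), and was also lower in proliferation medium (log2 difference -1.27, adjusted p = 0.0251). Irf5, a transcription factor of innate immunity, fell from 102 and 96.1 TPM to 21.6, 15.6 and 13.3 TPM (log2 difference -2.52, adjusted p = 0.00115). In proliferation medium its levels lay close together, at 20.6 and 19.1 TPM in control and at 18.3, 17.8 and 15.6 TPM in Atrx-deleted libraries. Neurl1b, a gene of the neuralized family of ubiquitin ligases, was at 1.78 and 1.32 TPM in control and at 14, 13.9 and 15.2 TPM in Atrx-deleted libraries after 8 days, and at 24.0 and 15.1 TPM against 19.9, 17.7 and 16.2 TPM in proliferation medium. For Irf5 and Neurl1b the difference of the Atrx effect between the media did not pass without mA19d#7 (adjusted p = 0.0773 and 0.0866).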
